A study of Homo sapiens with 18 samples.

Results

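Torin1, an inhibitor of the kinase mTOR, was compared with no inhibitor in human cells that had been starved and then fed for 1 h. The comparison used the 3 libraries of cells fed for 1 h with Torin1 and the 3 libraries of cells fed for 1 h without it, out of 18 libraries in 6 groups. All expressed genes were taken: the deposited table lists 60623 genes. A count above 0 was found in at least 1 library for 29840 of them, and the 16414 that passed a filter on low counts were tested. The cells were HEK-293E, an established line derived from human embryonic kidney, grown in DMEM with 10% fetal bovine serum. Every group went through overnight starvation in DMEM with 0.1% serum, the fed groups included, and feeding meant a change back to the regular growth medium. The other 4 groups, used here only to set the 1 h effect beside that in other states, were starved cells without and with Torin1 and cells fed for 4 h without and with Torin1. All values come from 1 line of cells, and the labels used here state neither how much Torin1 was added nor for how long. Nothing in them says that the 3 libraries of a group came from separate cultures, so p-values measure only the spread between these libraries.

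mTOR is a protein kinase that works in a pair of complexes. The first, mTORC1, is switched on at the lysosome when amino acids are plentiful and growth factors act through PI3K and AKT, and it promotes protein, lipid and nucleotide synthesis and restrains autophagy. The second, mTORC2, phosphorylates AKT and SGK kinases. Torin1 competes with ATP and blocks both complexes. Among transcription factors, mTORC1 is known to raise the output of ATF4 (amino acid supply), SREBP (lipid synthesis), HIF1A (glycolysis) and MYC, and to hold back TFEB and TFE3 (lysosome genes), while AKT holds back the FOXO factors.

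Promoter sequences are shown for the genes that carried the amino acid and early growth responses, because a DNA element for the factors named above can be read in some of them. Promoters are windows of 250 bases before to 50 bases after the gene start, from RefSeq on GRCh38.p14. The first 3 stretches hold the C/EBP-ATF response element (CARE), searched as TGATGNAA on both strands, in capitals: in ASNS (asparagine synthetase) at chr7:97872443-97872502, minus strand, in CHAC1 (a glutathione-cleaving enzyme) at chr15:40953236-40953295, plus strand, and in SLC3A2 (the heavy chain of amino acid exchangers) at chr11:62881725-62881748, plus strand. In EGR1 (an early growth response transcription factor), at chr5:138465348-138465431, plus strand, the capitals mark 2 CArG boxes, the element bound by SRF. In LAMP1 (a lysosomal membrane protein), at chr13:113297226-113297255, plus strand, they mark the core TCACGTGA of the CLEAR element of lysosome genes.
ASNS: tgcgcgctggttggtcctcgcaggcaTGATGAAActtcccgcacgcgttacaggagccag
CHAC1: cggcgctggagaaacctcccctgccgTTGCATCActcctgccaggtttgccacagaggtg
SLC3A2: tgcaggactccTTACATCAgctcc
EGR1: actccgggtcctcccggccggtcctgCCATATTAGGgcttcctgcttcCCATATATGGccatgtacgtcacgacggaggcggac
LAMP1: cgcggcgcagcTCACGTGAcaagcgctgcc
The 150 bases before the start of STC2 (a stress-induced secreted glycoprotein), chr5:173328415-173328564, minus strand, and of TTC5 (a tetratricopeptide protein), chr14:20305952-20306101, minus strand, are shown as the genes with the smallest p among those lowered and as a gene at the top of those raised, and no letters of the 3 elements were found there.
STC2: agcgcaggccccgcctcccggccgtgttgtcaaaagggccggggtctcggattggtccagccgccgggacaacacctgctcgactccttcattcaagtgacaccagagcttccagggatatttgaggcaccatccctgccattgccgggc
TTC5: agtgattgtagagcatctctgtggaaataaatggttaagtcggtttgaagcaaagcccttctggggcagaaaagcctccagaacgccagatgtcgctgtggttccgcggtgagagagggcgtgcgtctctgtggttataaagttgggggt
All 3 elements were also counted. CARE letters stood in 1003 of 27305 promoters (3.67%), in 53 of 4073 matched promoters of genes higher with Torin1 (1.30%), in 78 of 3747 of genes lower (2.08%) and in 52 of 3898 of genes not called (1.33%). Among 36 matched genes of the 2 ATF4 lists described below they stood in 6 (16.7%): ASNS, ATF3, CHAC1, FGF21, SLC3A2 and SLC7A1. CLEAR core letters stood in 283 of all promoters (1.04%), in 53 of those of higher genes (1.30%), in 104 of those of lower genes (2.78%), in 60 of those of genes not called (1.54%) and in 4 of 24 lysosome genes. CArG boxes stood in 351 of all promoters, in 0.958% of those of higher and 1.04% of those of lower genes, and in 2 of 25 immediate early genes, EGR1 and SRF. Such matches are letters in a window and were not tested as binding sites.

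Depth was similar in the 6 libraries, at 11360148 to 13690035 counts. Levels are in CPM, the counts of a gene per 1000000 counts of its library, with library sizes scaled by TMM, edgeR's correction for composition. A gene with no count could have had up to 3 counts, which is 0.2155 to 0.2751 CPM, for counting error alone. Replicates without Torin1 had Spearman correlations of 0.986 to 0.990 across genes and those with Torin1 of 0.992 to 0.993. Mitochondrially encoded genes held 2.95%, 3.07% and 2.99% of counts without and 2.66%, 2.73% and 3.81% with Torin1, and the 10 most abundant genes held 4.99% to 5.42% without and 6.27% to 6.64% with it. CPM are shares of a library, so a change in total RNA per cell, or in the number of cells, cannot be told apart from a change in a gene's share. Markers of the line were present (EYA1, SALL1, CDH2 and NEFM among them), with PAX8 at 1 count over the 6 libraries. PAX2, LHX1 and WT1 of the same list were low, at means of 1.12, 3.34 and 3.44 CPM without and 2.76, 2.22 and 2.59 CPM with Torin1. The summed level of that list was 927 to 1191 CPM without and 1723 to 1823 CPM with Torin1, of which VIM, an intermediate filament gene, held 716, 521 and 542 without and 1308, 1228 and 1249 CPM with Torin1. Library 2 without Torin1 held 56 counts of COL1A2, 65 of COL3A1 and 15 of DCN, fibroblast genes that were at 1 to 8, 2 to 5 and 0 counts in the other 5 libraries. The 9 fibroblast markers summed to 9.55 to 28.9 CPM without and 16.9 to 20.4 CPM with Torin1, with FAP at 0 in all 6. Of 7 immune, 6 endothelial and 6 hepatocyte markers, the sums stayed at or under 5.21, 1.93 and 0.521 CPM. The 8 markers of carcinoma lines and squamous epithelium summed to 179 to 213 CPM without and 280 to 294 CPM with Torin1. Most of that was CDKN2A, at 2103 to 2539 counts without and 3182 to 3965 with Torin1, while EPCAM was at 44 to 60 and 30 to 39 counts. Their part in the results was not tested.

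Torin1 changed most expressed genes. With edgeR's quasi-likelihood test, which gives every adjusted p below unless another tool is named, and a threshold of 0.05, 10361 of 16414 genes were called (63.1%), 5451 of them higher with Torin1 (33.2%) and 4910 lower (29.9%). Those shares are the background against which every count of calls at 1 h below is read. Counts for other feeding states and for differences between states are read against their own totals, given with them. The called higher genes had a median log2 fold change of 1.02 and the called lower genes −0.74. Changes of at least 4-fold were more often rises, with 781 genes higher and 289 lower, but at 16-fold and above the counts were 50 and 47. The groups did not overlap for 5866 genes with Torin1 higher and 5151 with it lower, and 425 called genes had overlapping groups. The median over all tested genes was 0.06. Scaling by total counts moved it to 0.17 and raised the share of calls that were higher from 52.6% to 59.8%, so list medians within about that shift depend on the scaling. In what follows levels are in CPM, and signed values given as changes or in parentheses after a gene are log2 fold changes of Torin1 against no Torin1, at 1 h unless another feeding state or a difference between states is named.

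**Figure D1:**
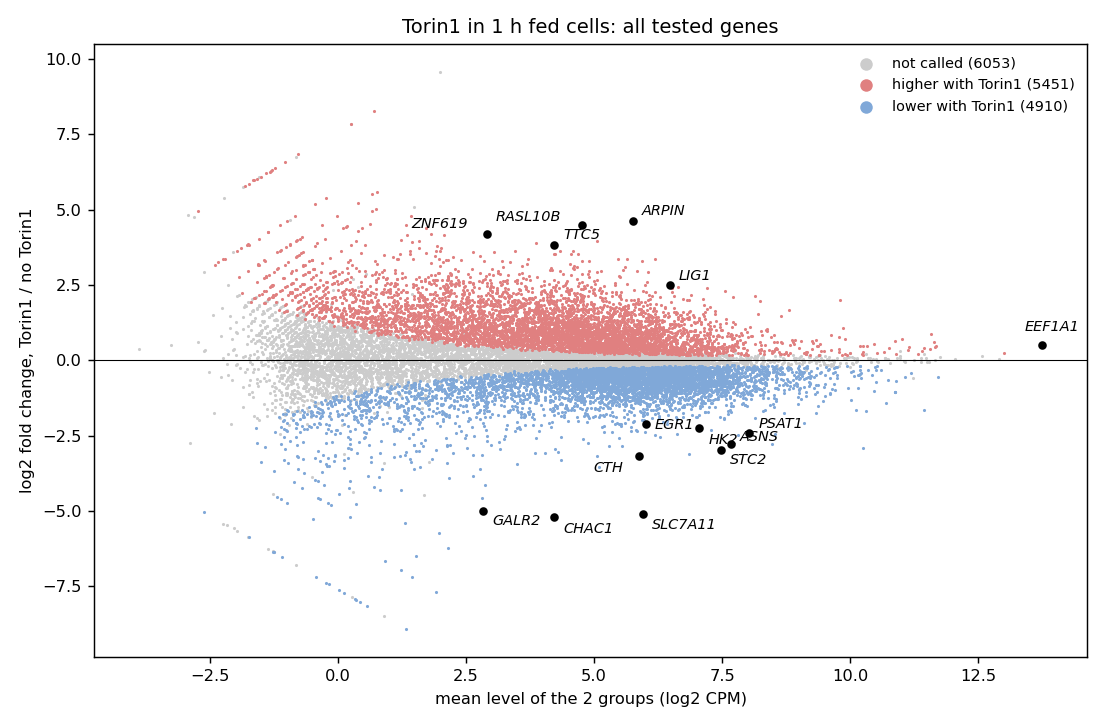
Log2 fold change by Torin1 in cells fed for 1 h (vertical axis) against the mean level of both groups in log2 CPM (horizontal axis), 1 point per tested gene, with genes called higher in red and lower in blue. Calls run through the whole range of levels, and among the labelled genes ARPIN and RASL10B lie highest and CHAC1 and SLC7A11 lowest.

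Of the 4 genes chosen as markers of this comparison, STC2, ASNS and EGR1 fell and TTC5 rose. STC2 (ENSG00000113739) was at 343, 306 and 301 without and 40.0, 41.4 and 40.1 CPM with Torin1, a log2 fold change of −2.97 (SE 0.09, adjusted p = 4.66e-21). ASNS (ENSG00000070669), which makes asparagine from aspartate and glutamine, was at 398, 348 and 322 without and 50.6, 53.5 and 50.6 CPM with Torin1, a change of −2.79 (SE 0.10, adjusted p = 7.58e-20). In both genes every Torin1 library lay far below the lowest untreated one. EGR1 (ENSG00000120738), an immediate early gene induced by serum, was at 153, 77.0 and 84.1 without and 19, 23.5 and 30.4 CPM with Torin1, a change of −2.10 (SE 0.32, adjusted p = 6.41e-05). Its first untreated library lay well above the other 2, and the groups did not overlap. TTC5 (ENSG00000136319), a cofactor of p300 that also takes part in the control of tubulin mRNA, was at 3.21, 2.46 and 1.61 without and 37.2, 35.7 and 32.0 CPM with Torin1, a change of 3.85 (SE 0.17, adjusted p = 1.60e-17). TTC5 overlaps AL356019.2 and ASNS overlaps AC079781.5 on the same strand, and each overlaps another gene on the opposite strand. The split of reads between such genes is uncertain.

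The genes of amino acid supply under ATF4 fell together. ATF4, which is translated when eIF2 is phosphorylated and also downstream of mTORC1, acts as a dimer with C/EBP and related factors. Of 10 listed factors 9 were tested, and 7 fell and 0 rose (median −1.22), with the same 0 and 7 at an unadjusted p under 0.05. The DESeq2 Wald test called 7 lower and 0 higher, and limma-voom 6 and 0. ATF4 itself was at 738, 675 and 648 without and 459, 468 and 478 CPM with Torin1, a change of −0.55 (SE 0.07, adjusted p = 2.56e-08). CEBPB, a partner of ATF4, was at 73.4, 67.9 and 65.3 without and 7.87, 10.8 and 10.3 CPM with Torin1 (−2.83). CEBPG, another partner, was at 151, 143 and 145 without and 71.8, 57.9 and 58.5 CPM with Torin1 (−1.22). Of these, ATF4 had the smallest change. TRIB3, a pseudokinase that feeds back on ATF4, was at 94.9, 63.6 and 67.0 without and 18.3, 16.7 and 16.9 CPM with Torin1, a change of −2.12 (SE 0.13, adjusted p = 2.57e-14). DDIT3 (CHOP), which promotes apoptosis in prolonged stress, changed by −1.40 and JDP2, a repressor of AP-1, by −2.07. ATF3 was called at −0.53 (SE 0.22, adjusted p = 0.049), though without untreated library 1 it was at −0.23 (adjusted p = 0.246). ATF5 had a log2 change of 0.22 (adjusted p = 0.303) and BATF2 had a log2 change of −0.35 (adjusted p = 0.607), neither called.

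ATF4's targets had the lowest median of the 44 lists. Lists share genes, and ATF4, ATF3, ATF5, DDIT3, CEBPB and TRIB3 are on both ATF4 lists. Some targets are counted again below among amino acid transporters, serine and folate enzymes and cytosolic tRNA synthetases. The counts of these lists are therefore not separate results. Of 41 listed genes 40 were tested, and 36 fell and 0 rose (median −1.45), with 0 and 36 at an unadjusted p under 0.05. The DESeq2 Wald test called 36 lower and 0 higher, and limma-voom 35 and 0. CHAC1 (ENSG00000128965) was at 36.3, 30.6 and 42.3 without and 0.684, 1.09 and 1.15 CPM with Torin1, a change of −5.19 (SE 0.33, adjusted p = 1.10e-11). SLC7A11 (ENSG00000151012), the cystine importer, was at 111, 129.9 and 122 without and 4.70, 2.02 and 3.81 CPM with Torin1, a change of −5.10 (SE 0.19, adjusted p = 6.80e-16). It overlaps SLC7A11-AS1 on the opposite strand, and since the authors' strand setting is not given in the sources used here, reads of such a pair cannot be told apart. Both had been at 30 CPM or more in every untreated library and were under 5 CPM in every treated one. CTH, which makes cysteine from cystathionine, was at 124, 95.1 and 97.3 without and 10.5, 11.3 and 13 CPM with Torin1, a change of −3.18 (SE 0.14, adjusted p = 5.99e-18). PSAT1, an enzyme of serine synthesis, was at 446, 438 and 439 without and 84.9, 79.1 and 85.3 CPM with Torin1, a change of −2.41 (SE 0.08, adjusted p = 1.43e-20). VEGFA, a blood vessel growth factor, was at 121, 125 and 127 without and 21, 22.4 and 23.1 CPM with Torin1, a change of −2.49 (SE 0.10, adjusted p = 3.02e-18). SESN2 and DDIT4 restrain mTORC1 under stress. SESN2 went from 206, 184 and 216 CPM to 70.0, 45.7 and 50.3 CPM (−1.87) and DDIT4 (REDD1) from 109, 66.7 and 69.9 CPM to 15.2, 9.16 and 10.3 CPM (−2.83). FGF21, a secreted hormone with a CARE in its promoter, was at 1.38, 0.254 and 0.179 CPM without Torin1 and listed at 0 in the 3 libraries with it. KLHL24, also listed, had a log2 change of 0.08 (adjusted p = 0.559).

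**Figure D2:**
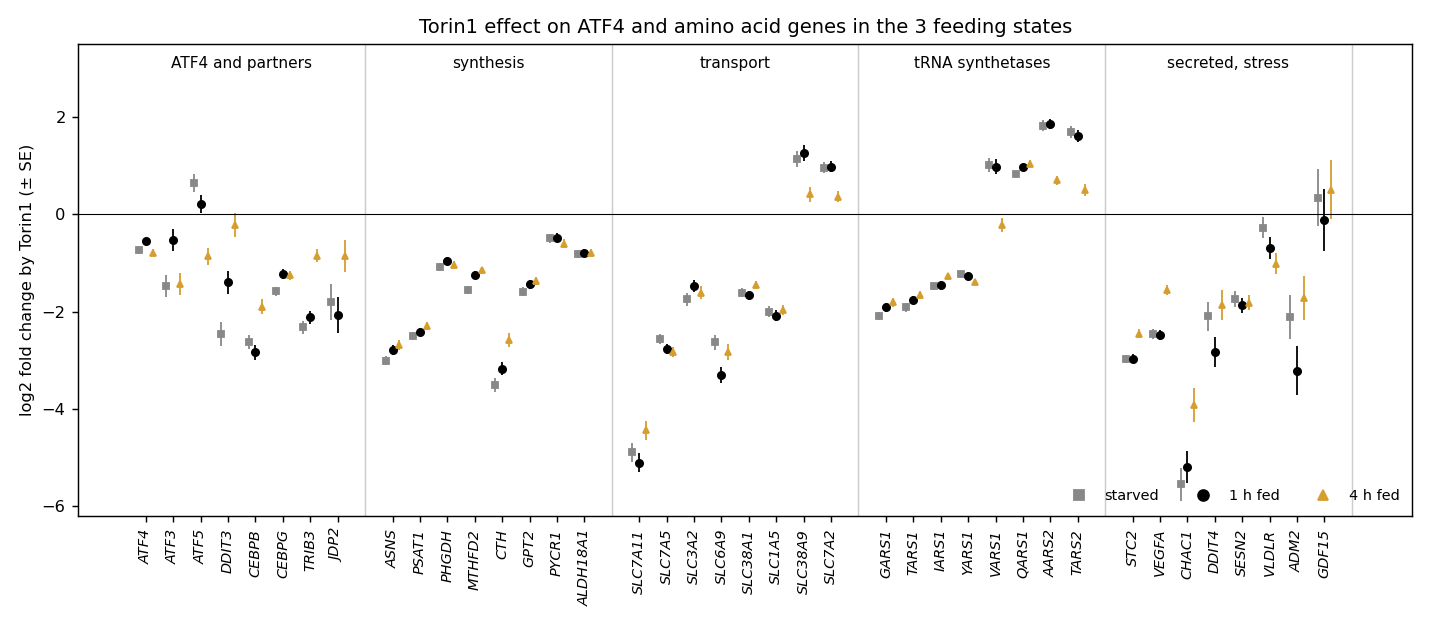
Log2 fold change by Torin1 with its SE for genes of ATF4 and amino acid supply, in starved cells (grey squares), cells fed for 1 h (black circles) and cells fed for 4 h (yellow triangles). Most genes lie below 0 in all 3 states, whereas ATF5, VARS1, QARS1, AARS2, TARS2, SLC38A9 and SLC7A2 lie above 0 at 1 h.

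Amino acid transporters fell in 16 of 23 tested cases of 25 listed and rose in 5 (median −0.80). SLC7A5, which brings in leucine and other large neutral amino acids with SLC3A2, was at 525, 704 and 644 without and 98.4, 84.9 and 91.8 CPM with Torin1, a change of −2.77 (SE 0.10, adjusted p = 5.65e-19). The glycine transporter SLC6A9 was at 36.5, 42.1 and 32.2 without and 3.17, 3.95 and 4.10 CPM with Torin1, a change of −3.30 (SE 0.16, adjusted p = 1.30e-16). It overlaps CCDC24 on the opposite strand, so the same doubt about shared reads holds. SLC38A1, a glutamine transporter, was at 431, 518 and 533 without and 174, 150.0 and 145 CPM with Torin1 (−1.66). Those that rose included SLC38A9, the lysosomal arginine sensor of mTORC1, at 12.9, 12.9 and 7.86 without and 25.3, 26.4 and 28.8 CPM with Torin1 (1.26, SE 0.17, adjusted p = 9.60e-08). SLC7A2, a carrier of cationic amino acids, rose by 0.98, the lysosomal glutamine exporter SLC38A7 by 0.79 and SLC43A1, a carrier of branched-chain amino acids, by 0.65. Enzymes of serine synthesis and the folate cycle fell in 13 of 20 cases and rose in 6 (median −0.42). The mitochondrial folate enzymes MTHFD2 (−1.25) and MTHFD1L (−1.53) and PHGDH, the first enzyme of serine synthesis (−0.96), fell. MTHFS, which returns a storage folate to the cycle, went the other way at 4.13, 5.93 and 3.75 without and 17.3, 20.7 and 16.7 CPM with Torin1 (1.98, SE 0.17, adjusted p = 1.66e-11). Thymidylate synthase TYMS was at 73.3, 90.5 and 76.0 without and 168, 151 and 148 CPM with Torin1 (0.96) and the methionine synthase MTR changed by 0.70.

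Aminoacyl-tRNA synthetases were counted by compartment. The cytosolic enzymes fell in 16 of 23 cases and rose in 5 (median −0.51), and the mitochondrial ones rose in 12 of 20 and fell in 7 (median 0.37). GARS1, which charges glycine tRNA, was at 442, 422 and 484 without and 123, 114 and 122 CPM with Torin1, a change of −1.91 (SE 0.09, adjusted p = 1.77e-17). TARS1, for threonine, changed by −1.76, IARS1, for isoleucine, by −1.44 and YARS1, for tyrosine, by −1.27. The glutamine enzyme QARS1 went against its list, at 213, 207 and 204 without and 396, 411 and 415 CPM with Torin1, a change of 0.97 (SE 0.07, adjusted p = 1.37e-13), and so did the valine enzyme VARS1 (0.98), the phenylalanine subunit FARSB (0.80) and the scaffold AIMP1 (1.12). Among mitochondrial enzymes AARS2, for alanine, was at 16.2, 20.2 and 17.1 without and 58.8, 64.7 and 70.5 CPM with Torin1, a change of 1.86 (SE 0.11, adjusted p = 5.98e-15). FARS2, for phenylalanine, changed by 2.03, VARS2, for valine, by 1.69 and TARS2, for threonine, by 1.60. EARS2, for glutamate, fell to 34.7, 35.0 and 32.6 CPM from 74.4, 92.5 and 93.3 CPM (−1.35), and MARS2, for methionine, changed by −1.29. The difference between the 2 lists was not tested.

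The genes with the largest falls, among called genes whose groups did not overlap and whose mean reached 5 CPM, were CHAC1, SLC7A11, SLC6A9 and CTH, described above, and 8 genes outside those lists. GALR2, a galanin receptor, was at 11.8, 15.2 and 14.7 without and 0.0855, 0.757 and 0.431 CPM with Torin1, a change of −4.99 (SE 0.39, adjusted p = 8.56e-12), and it overlaps ZACN on the same strand. PRRG2, a transmembrane protein with a Gla domain, was at 15.1, 11.9 and 13.5 without and 0.684, 0.336 and 0.647 CPM with Torin1, a change of −4.57 (SE 0.33, adjusted p = 5.06e-13). It overlaps NOSIP on the opposite strand, so reads of the pair cannot be told apart either. SYT11, a synaptotagmin of vesicle traffic, overlaps no other gene and was at 60.0, 65.8 and 62.2 without and 7.10, 5.72 and 3.45 CPM with Torin1, a change of −3.55 (SE 0.21, adjusted p = 2.16e-12). DHRS2, a mitochondrial dehydrogenase, varied between untreated libraries, at 61.3, 31.3 and 86.6 without and 7.19, 5.63 and 7.05 CPM with Torin1, a change of −3.17 (SE 0.65, adjusted p = 8.95e-04). The remaining 4 of the 12 had no symbol: ENSG00000287856 (−4.13), ENSG00000287064 (−3.85), ENSG00000257390 (−3.60, overlapping DNAJC14 and SARNP on its strand) and ENSG00000260103 (−3.42).

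The genes with the largest rises, taken by fold change at a mean of at least 5 CPM over the 6 libraries, had low untreated levels. That choice favours such genes, since those under 5 CPM without Torin1 reached the mean only through the treated libraries. ARPIN (ENSG00000242498), an inhibitor of the Arp2/3 actin nucleator, was at 5.88, 2.80 and 4.02 without and 109.7, 102 and 102 CPM with Torin1, a change of 4.63 (SE 0.15, adjusted p = 1.43e-20). RASL10B (ENSG00000270885), a small GTPase of the RAS family, was at 3.03, 1.78 and 2.14 without and 55.8, 55.1 and 46.2 CPM with Torin1, a change of 4.50 (SE 0.21, adjusted p = 1.76e-16). ARPIN shares sequence with the read-through gene C15orf38-AP3S2 and RASL10B overlaps TAF15 on its strand, so the split of reads between them is uncertain. ZNF619, a zinc finger gene that overlaps ZNF620 on its strand, was at 1.19, 0.593 and 0.536 without and 15, 13.7 and 14.3 CPM with Torin1, a change of 4.20 (SE 0.27, adjusted p = 4.52e-14). ASB13, a substrate receptor of a ubiquitin ligase, was at 4.96, 4.92 and 2.05 without and 61.8, 61.6 and 64.0 CPM with Torin1, a change of 3.97 (SE 0.17, adjusted p = 3.26e-17). CHMP6, a subunit of the membrane-cutting ESCRT-III complex, was at 2.20, 1.95 and 1.34 without and 26.3, 28.7 and 26.8 CPM with Torin1, a change of 3.89 (SE 0.27, adjusted p = 2.32e-11). It overlaps AC127496.7 on its strand and AC127496.6 on the opposite strand. In each of these genes the 3 Torin1 libraries lay close to each other, and every untreated library was below 7 CPM. EPHX2 (soluble epoxide hydrolase) rose by 3.63, TTC26 (a ciliary transport subunit) by 3.62, WDR31 (a WD repeat gene) by 3.59, SLC35A1 (the Golgi carrier of CMP-sialic acid) by 3.59 and WSCD1 (a sulfotransferase family gene) by 3.54.

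Glycolysis genes fell in 13 of 22 cases and rose in 4 (median −0.39). Hexokinase HK2, which traps glucose in the cell, was at 213, 222 and 222 without and 49.4, 44.1 and 45.4 CPM with Torin1, a change of −2.24 (SE 0.10, adjusted p = 5.24e-18). The glucose transporter SLC2A1 was at 129.6, 154 and 135 without and 29.9, 33.5 and 33.7 CPM with Torin1 (−2.11). Lactate dehydrogenase LDHA was at 1964, 1491 and 1548 without and 609.6, 502 and 500.0 CPM with Torin1 (−1.63). Phosphofructokinase genes went the other way, PFKL at 55.6, 61.9 and 48.3 without and 216, 230.2 and 231 CPM with Torin1, a change of 2.03 (SE 0.13, adjusted p = 6.21e-12), and PFKM changed by 0.60. HIF1A was at 92.6, 89.3 and 110.1 without and 71.6, 68.6 and 71.7 CPM with Torin1 (−0.46), and its list fell in 7 of 15 tested cases of 17 and rose in 3 (median −0.37). NDRG1, a hypoxia-induced gene, rose from 66.7, 34.6 and 25.8 CPM to 106, 102 and 105 CPM (1.30, SE 0.24, adjusted p = 3.67e-04), and EGLN1, the oxygen sensor that marks HIF1A for destruction, by 0.53.

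Lipid synthesis genes fell as well. Of 25 tested cholesterol genes of 26 listed 19 fell and 2 rose (median −0.65), and of 14 tested fatty acid genes of 15 listed 9 fell and 4 rose (median −0.48). NSDHL, a late sterol enzyme, was at 118, 144 and 126 without and 41.1, 41.4 and 38.9 CPM with Torin1, a change of −1.68 (SE 0.09, adjusted p = 1.04e-15), and MVD, of the mevalonate pathway, changed by −1.16 and squalene synthase FDFT1 by −1.0. PMVK, the enzyme one step before MVD, rose from 10.5, 9.58 and 4.65 CPM to 30.6, 30.8 and 27.1 CPM (1.84, SE 0.18, adjusted p = 3.07e-10). ME1, which makes NADPH, changed by −1.82, the desaturase SCD by −0.92 and ATP citrate lyase ACLY by −0.77, while ACSS2, which makes acetyl-CoA from acetate, rose by 1.43 and ACACB, the mitochondrial acetyl-CoA carboxylase, by 1.09. Nucleotide and pentose phosphate genes went both ways, with 10 of 26 higher and 12 lower, and their median of −0.04 became 0.07 with total counts. The purine enzymes PPAT (193, 192 and 217 without and 87.5, 84.7 and 90.2 CPM with Torin1, −1.20), PAICS (−0.99) and GART (−0.73) and the reductase subunit RRM2 (−0.96) fell. PGLS, of the pentose phosphate pathway, rose from 41.6, 38.6 and 32.6 CPM to 98.3, 111 and 100.2 CPM (1.46, SE 0.10, adjusted p = 1.17e-13), as did CTPS2, a CTP synthase (1.27), and IMPDH2, of guanine nucleotide synthesis (0.58).

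Ribosome assembly factors fell in 46 of 57 cases and rose in 5 (median −0.73). The RNA helicase DDX21 was at 856, 964 and 1126 without and 374, 324 and 335 CPM with Torin1, a change of −1.51 (SE 0.09, adjusted p = 8.01e-15). TSR1, of small subunit maturation, was at 253, 274 and 289.6 without and 115, 107 and 114 CPM with Torin1 (−1.28). The nucleolar phosphoprotein NOLC1 changed by −1.11 and BYSL by −1.34. The 5 that rose included WDR75, of the small subunit processome, at 26.9, 19.7 and 24.4 without and 71.5, 77.9 and 71.6 CPM with Torin1, a change of 1.64 (SE 0.10, adjusted p = 7.74e-15). PES1, of large subunit maturation, was at 81.3, 84.0 and 61.3 without and 192, 186 and 191 CPM with Torin1 (1.33, SE 0.11, adjusted p = 4.42e-11). The kinase RIOK2 (1.07) and the endonuclease NOB1 (0.50), both of late small subunit maturation, rose too.

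Of the machinery that transcribes ribosomal RNA, polymerase I genes mostly fell and polymerase III genes were mixed. Of 15 polymerase I genes 10 fell and 2 rose (median −0.56). TAF1A, of the selectivity factor SL1, was at 30.8, 25.8 and 30.9 without and 10.7, 6.89 and 7.34 CPM with Torin1, a change of −1.82 (SE 0.15, adjusted p = 1.48e-11). The initiation factor RRN3, through which mTOR acts on polymerase I, was at 100.3, 115 and 123 without and 69.0, 69.1 and 77.2 CPM with Torin1 (−0.65), and the subunits POLR1B (−0.95) and POLR1F (−1.0) fell. UBTF, which binds ribosomal DNA along its length, was at 45.2, 42.5 and 37.8 without and 168, 179 and 166 CPM with Torin1, a change of 2.03 (SE 0.09, adjusted p = 1.60e-17), and the subunit POLR1H rose by 0.72. Polymerase III genes were called in 8 of 22 cases in each direction (median −0.05, or 0.06 with total counts). POLR3K was at 109, 124 and 105 without and 35.0, 33.3 and 38.9 CPM with Torin1 (−1.65). The TATA-binding protein TBP was at 65.1, 60.4 and 69.9 without and 30.3, 29.3 and 29.6 CPM with Torin1 (−1.13). GTF3C3, of the factor TFIIIC, was at 30.9, 28.6 and 25.3 without and 103, 97.9 and 107 CPM with Torin1 (1.86, SE 0.10, adjusted p = 5.56e-16) and BRF1, of TFIIIB, rose by 0.80.

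Ribosomal protein genes, whose messages carry the 5′ terminal oligopyrimidine (TOP) motif and are held back in translation when mTORC1 is off, rose in 29 of 79 cases and fell in 6 (median 0.08, with 24 and 8 called with DESeq2 size factors and 42 and 4 with total counts). RPL15 was at 1673, 1582 and 1424 without and 2547, 2570.3 and 2570.4 CPM with Torin1, a change of 0.72 (SE 0.07, adjusted p = 2.28e-10). RPL29 changed by 0.78 and RPL10 by 0.64, while RPL27 changed by −0.43 and FAU changed by −0.38. Other genes with TOP messages rose in 11 of 15 cases and fell in 3 (median 0.26). The elongation factor EEF1A1 was at 12194, 11001 and 10976 without and 16393, 15957 and 16152 CPM with Torin1, a change of 0.51 (SE 0.07, adjusted p = 9.14e-08). The RNA-binding protein HNRNPA1 was at 2293, 2214 and 2019 without and 4009, 3965 and 3952 CPM with Torin1 (0.87). The elongation factor subunit EEF1D fell (−0.40). Initiation factors fell in 14 of 24 cases and rose in 5 (median −0.25). EIF2S1, the phosphorylated subunit of eIF2, was at 163, 159.6 and 164 without and 68.7, 66.2 and 72.0 CPM with Torin1 (−1.23, SE 0.09, adjusted p = 2.37e-13), and EIF2S2 (−1.24), EIF5A (−1.08) and EIF2B1, of the eIF2 exchange factor (−1.05), fell. Of those that rose, EIF4EBP2, an inhibitor of the cap-binding protein, was at 140.4, 153 and 150.2 without and 272, 245 and 257 CPM with Torin1 (0.80, SE 0.07, adjusted p = 1.18e-10), EEF2K, the kinase that inactivates eEF2, changed by 0.66 and the helicase EIF4A2 changed by 1.10.

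Genes of protein folding and breakdown fell widely. Heat shock and chaperone genes fell in 24 of 30 cases and rose in 1 (median −0.83). CHORDC1, a cochaperone of HSP90, was at 202, 197 and 264 without and 41.7, 47.9 and 49.5 CPM with Torin1, a change of −2.25 (SE 0.12, adjusted p = 7.25e-15). TCP1, a subunit of the chaperonin for actin and tubulin, was at 1032, 948 and 1062 without and 401, 385 and 415 CPM with Torin1 (−1.34), and HSPA4L, an HSP110 family member, changed by −1.58. The 1 that rose was CCT7, another subunit of the same chaperonin, at 345, 389 and 338 without and 577, 574 and 567 CPM with Torin1, a change of 0.68 (SE 0.08, adjusted p = 5.50e-09). Proteasome genes fell in 28 of 35 cases and rose in 3 (median −0.67). PSMB2, a core subunit, was at 317, 319 and 362 without and 165, 150.5 and 146 CPM with Torin1 (−1.11) and the base subunit PSMC4 changed by −1.07. NFE2L1, the transcription factor of proteasome genes, was at 279, 282 and 307 without and 139, 163 and 149 CPM with Torin1 (−0.94, SE 0.08, adjusted p = 2.20e-11). The 3 that rose were PSMD3, a lid subunit, at 65.2, 70.4 and 57.4 without and 166, 175 and 164 CPM with Torin1 (1.38, SE 0.09, adjusted p = 1.12e-13), PSMD4, a ubiquitin receptor (0.58), and PSMA1, a core subunit (0.38).

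Unfolded protein response genes fell in 17 of 22 cases and rose in 1 (median −0.57). HERPUD1, of endoplasmic reticulum degradation, was at 174, 144 and 151 without and 41.7, 39.4 and 41.0 CPM with Torin1, a change of −1.94 (SE 0.11, adjusted p = 1.12e-15), MANF changed by −1.43 and the transcription factor XBP1 by −1.09. ATF6, the sensor that is cleaved in the Golgi, was the 1 that rose, at 41.4, 32.5 and 36.1 without and 54.9, 61.3 and 66.2 CPM with Torin1 (0.73, SE 0.12, adjusted p = 5.55e-06). Of 18 targets of NRF2, the factor of the antioxidant response, 10 fell and 1 rose (median −0.73). PRDX1, a peroxiredoxin, was at 978, 977 and 1038 without and 313, 291 and 295 CPM with Torin1, a change of −1.74 (SE 0.09, adjusted p = 2.48e-16). Thioredoxin reductase TXNRD1 (−1.43) and sulfiredoxin SRXN1 (−1.61) fell, while GCLC, of glutathione synthesis, rose from 34.5, 39.7 and 36.1 CPM to 44.6, 44.6 and 46.9 CPM (0.30, SE 0.10, adjusted p = 0.00682).

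Serum-induced early genes were mostly lower, though not uniformly. Of 35 immediate early genes 21 fell and 5 rose (median −0.75). IER2 was at 191, 154 and 207 without and 58.9, 66.3 and 71.6 CPM with Torin1, a change of −1.49 (SE 0.12, adjusted p = 9.34e-12). JUNB, an AP-1 factor, was at 56.6, 40.8 and 49.7 without and 16.9, 16 and 14.8 CPM with Torin1 (−1.63). SRF, which binds the CArG boxes of EGR1 and of its own promoter, was at 171, 218 and 224 without and 116, 122 and 119.8 CPM with Torin1 (−0.78). FOSL2, another AP-1 factor, went up, at 7.34, 5.0 and 3.93 without and 12.1, 11.7 and 11.1 CPM with Torin1, a change of 1.10 (SE 0.23, adjusted p = 1.39e-04). CCN1, a YAP and SRF target, was at 18.2, 14.1 and 13.5 without and 18.3, 31.5 and 37.7 CPM with Torin1 (0.94, SE 0.21, adjusted p = 3.28e-04). NAB1, a corepressor of EGR proteins, rose by 1.04. MYC was at 135, 173 and 126 without and 151, 172 and 177 CPM with Torin1, not called (0.21, adjusted p = 0.0912), with overlapping groups. EGR3 was at 17.4, 11.8 and 14.1 without and 10.3, 15.9 and 22.4 CPM with Torin1, not called (0.17, adjusted p = 0.571). Feedback genes of the ERK pathway fell in 7 of 17 tested cases of 18 and rose in 1 (median −0.40). ETV5, an ETS factor, was at 10.5, 6.95 and 6.70 without and 1.20, 0.588 and 0.503 CPM with Torin1, a change of −3.40 (SE 0.36, adjusted p = 1.28e-09), and the phosphatases DUSP14 (−1.23) and DUSP7 (−0.81) fell. SPRED1, an inhibitor of RAS signalling, changed by 0.56 (adjusted p = 0.018), a call lost under at least 1 alternative. Actin, SRF and YAP genes were called in 6 of 19 tested cases upward and 8 downward. ACTA2, smooth muscle actin, was at 3.12, 2.12 and 2.32 without and 23, 21.7 and 25 CPM with Torin1 (3.21, SE 0.20, adjusted p = 1.34e-14). Calponin CNN2 was at 67.2, 60.3 and 52.8 without and 31.3, 27.4 and 26.5 CPM with Torin1 (−1.08).

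Targets of FOXO showed no common direction at 1 h. Of 27 tested genes of 28 listed 8 rose and 7 fell (median 0.08). FOXO3 was at 67.5, 71.9 and 64.7 without and 126, 121 and 129 CPM with Torin1, a change of 0.88 (SE 0.09, adjusted p = 7.30e-10). FOXO1 was at 25.1, 31.1 and 32.0 without and 23.9, 24.8 and 28.8 CPM with Torin1, not called (−0.19, adjusted p = 0.182). Insulin receptor INSR, a FOXO target, was at 17.1, 13.6 and 12 without and 48.9, 42.0 and 43.7 CPM with Torin1, a change of 1.66 (SE 0.13, adjusted p = 2.16e-12). CDKN1B, which inhibits cyclin-dependent kinases, was at 24.7, 23.1 and 28.7 without and 50.2, 62.3 and 59.3 CPM with Torin1 (1.17, SE 0.10, adjusted p = 3.76e-11). KLF15, a factor of amino acid breakdown, was at 39.7, 54.7 and 47.1 without and 6.24, 9.75 and 7.05 CPM with Torin1, a change of −2.62 (SE 0.18, adjusted p = 7.39e-13). PDK4, which blocks glucose oxidation, changed by −1.48, GADD45A, a stress gene, by −1.26 and CCNG2, an atypical cyclin, by −0.69. Other classic targets were not called: IRS2 had a log2 change of 0.30 (adjusted p = 0.0615), BBC3 had a log2 change of 0.25 (adjusted p = 0.216), SESN1 had a log2 change of −0.05 (adjusted p = 0.746) and FBXO32 had a log2 change of 0.02 (adjusted p = 0.915).

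The glucose-responsive arrestins TXNIP and ARRDC4 are both targets of the MLX and MondoA factors. ARRDC4 was at 146, 116 and 138 without and 25.5, 20.1 and 23.3 CPM with Torin1, a change of −2.54 (SE 0.12, adjusted p = 2.48e-17). TXNIP was at 19.2, 13.5 and 15.1 without and 16.5, 11.3 and 10.4 CPM with Torin1, not called (−0.33, adjusted p = 0.0931). MLX was at 139, 127 and 140.0 without and 71.9, 72.5 and 69.8 CPM with Torin1 (−0.92, SE 0.08, adjusted p = 3.48e-11). MLXIPL (ChREBP) was at 5.78, 5.85 and 3.31 without and 9.24, 11.5 and 14.7 CPM with Torin1 (1.25, SE 0.22, adjusted p = 1.46e-05), while MLXIP (MondoA) was not called (0.14, adjusted p = 0.137). Over the list 1 of 7 genes rose and 4 fell (median −0.77). Clock genes fell in 7 of 18 cases and rose in 3 (median −0.05, or 0.05 with total counts). The repressor PER1 was at 69.9, 80.8 and 83.9 without and 28.7, 31.8 and 33.8 CPM with Torin1 (−1.31, SE 0.11, adjusted p = 5.40e-12). The activators BMAL1 (−1.70) and CLOCK (−1.14) fell and NR1D2, a repressor of BMAL1, rose (0.61).

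Genes of the mTOR pathway itself were called in 9 of 33 cases upward and 12 downward (median −0.07, or 0.04 with total counts). MTOR was at 114, 125 and 137 without and 129, 129 and 121 CPM with Torin1 (0.01, adjusted p = 0.917), and RICTOR of mTORC2 (−0.07, adjusted p = 0.62) and MLST8 of both complexes (0.01, adjusted p = 0.941) were not called either. RPTOR, which brings substrates to mTORC1, was at 36.4, 36.9 and 31.5 without and 62.7, 69.7 and 75.7 CPM with Torin1, a change of 0.99 (SE 0.11, adjusted p = 5.23e-09). AKT1S1 (PRAS40), an inhibitor of mTORC1, was at 282, 302 and 351 without and 96.6, 97.4 and 92.2 CPM with Torin1, a change of −1.71 (SE 0.10, adjusted p = 1.31e-14). RHEB, the GTPase that activates mTORC1, was at 197, 186 and 199.7 without and 109, 101 and 108 CPM with Torin1 (−0.87). Upstream, AKT1 was at 48.1, 51.4 and 36.1 without and 117, 112 and 116 CPM with Torin1 (1.35, SE 0.11, adjusted p = 4.12e-12). GRB10, an adaptor that damps insulin signalling, changed by 0.90. Of the partners in the TSC complex, which restrains RHEB, TSC2 rose (0.65) and TSC1 fell (−0.71). Of the kinases downstream, RPS6KB1 (S6K1) fell (−0.53). SGK1 was at 7.44, 6.53 and 10.9 without and 2.65, 2.69 and 3.60 CPM with Torin1 (−1.46, SE 0.26, adjusted p = 1.47e-05).

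The lysosomal amino acid sensing genes also went both ways, 10 of 30 up and 13 down (median −0.09, or 0.02 with total counts). In GATOR1, which shuts off the Rag GTPases, DEPDC5 was at 55.5, 51.1 and 61.5 without and 20.7, 20.8 and 22.3 CPM with Torin1, a change of −1.40 (SE 0.12, adjusted p = 3.82e-11), and NPRL3 changed by −0.49, while NPRL2 was not called (−0.05, adjusted p = 0.719). In GATOR2, which opposes it, MIOS rose to 23.4, 24.8 and 26.2 CPM from 13.3, 11.6 and 11.6 CPM (1.03, SE 0.12, adjusted p = 1.89e-08), as did WDR59 (0.71) and WDR24 (0.64), while SEH1L fell (−1.03). KPTN, of the complex that holds GATOR1 at the lysosome, was at 39.0, 35.8 and 35.3 without and 11.7, 12.3 and 11.6 CPM with Torin1 (−1.63, SE 0.13, adjusted p = 2.68e-12). The Rag GTPases RRAGA (−0.46) and RRAGC (−0.72) fell, RRAGD was not called (−0.13, adjusted p = 0.323), and FLCN, which acts on RRAGC and RRAGD, changed by −0.50. BMT2 (SAMTOR), the sensor of S-adenosylmethionine, changed by −0.98.

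Lysosome genes did not rise as a list at 1 h: 12 of 37 tested genes of 38 rose and 18 fell (median −0.23). LAMP1, shown above with a CLEAR core, was at 283, 318 and 332 without and 106, 116 and 105 CPM with Torin1, a change of −1.51 (SE 0.09, adjusted p = 5.71e-15). The galactosidase GLA was at 419.8, 532 and 480.3 without and 148, 148 and 154 CPM with Torin1 (−1.67, SE 0.10, adjusted p = 5.58e-15). Subunits of the proton pump fell, among them ATP6V1E1 (−1.08), ATP6V1D (−1.03) and ATP6V1H (−0.72). Several hydrolases rose, the protease CTSO from 1.19, 0.424 and 0.804 CPM to 7.44, 9.58 and 9.21 CPM (3.44, SE 0.32, adjusted p = 1.26e-10), CTSF by 1.49, the sulfamidase SGSH by 1.27 and the peptidase TPP1 by 0.98. Of the factors that read CLEAR elements, MITF rose from 5.78, 2.29 and 2.86 CPM to 13.1, 13.7 and 12.8 CPM (1.86, SE 0.23, adjusted p = 3.41e-08), TFE3 fell (−0.69) and TFEB was not called (−0.31, adjusted p = 0.268). Autophagy genes rose in 13 of 39 tested cases of 40 and fell in 19 (median −0.25). ULK2, a kinase that starts autophagy, was at 9.55, 6.44 and 5.27 without and 28.4, 28.4 and 28.0 CPM with Torin1, a change of 2.00 (SE 0.18, adjusted p = 6.07e-11), and its partner ATG13 rose by 0.83, as did AMBRA1 (1.75). ULK1 was not called (−0.08, adjusted p = 0.504). The protease ATG4A was at 77.1, 79.4 and 81.1 without and 17.4, 18.4 and 20.1 CPM with Torin1 (−2.08, SE 0.11, adjusted p = 1.15e-15). MAP1LC3B, the marker of autophagosomes, was at 199.6, 166 and 214 without and 83.0, 73.5 and 81.3 CPM with Torin1 (−1.28).

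Mitochondrial genes were counted by genome. None of the 13 mitochondrially encoded proteins was called by edgeR in either direction (median 0.02, or −0.02 with DESeq2 size factors), with 1 lower at an unadjusted p under 0.05, 1 lower with the DESeq2 Wald test and 0 with limma-voom. The 2 tested mitochondrial genes annotated as ribosomal or transfer RNA were both called lower (median −0.99). Nuclear subunits of the respiratory chain rose in 12 of 46 cases and fell in 18 (median −0.11). SDHB, of succinate dehydrogenase, was at 157, 152 and 154 without and 82.5, 82.5 and 73.8 CPM with Torin1 (−0.96, SE 0.09, adjusted p = 3.67e-10). COX4I1, of cytochrome oxidase, was at 155, 168 and 146 without and 257, 259 and 249 CPM with Torin1 (0.70, SE 0.09, adjusted p = 2.28e-08) and NDUFS4, of complex I, rose by 1.27. Regulators of mitochondrial biogenesis fell in 11 of 16 cases and rose in 2 (median −0.55). The helicase TWNK was at 141, 164 and 170.3 without and 61.9, 52.3 and 54.9 CPM with Torin1, a change of −1.49 (SE 0.09, adjusted p = 1.34e-14), the transcription factor of mitochondrial DNA TFB2M changed by −1.79 and the nuclear receptor ESRRA by −1.05. The 2 that rose were activators, GABPB1 (0.83) and NRF1, which was at 14.5, 16.8 and 18.1 without and 24.7, 30.1 and 29.6 CPM with Torin1 (0.77, SE 0.14, adjusted p = 1.07e-05).

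Among cell cycle genes, G1 regulators fell in 12 of 21 cases and rose in 6 (median −0.33). Of the pocket proteins, which hold back E2F, RBL1 and RBL2 rose and RB1 fell (−0.33, SE 0.11, adjusted p = 0.00944). RBL1 was at 11.7, 7.88 and 7.24 without and 57.1, 54.5 and 53.2 CPM with Torin1, a change of 2.62 (SE 0.15, adjusted p = 6.95e-15). RBL2 was at 24.5, 24.8 and 17 without and 82.7, 85.4 and 96.8 CPM with Torin1 (2.00, SE 0.12, adjusted p = 1.58e-14). CDKN2C, an inhibitor of CDK4 and CDK6, rose by 1.11. CDKN2D, of the same family, was at 32.7, 32.4 and 35.2 without and 5.56, 3.53 and 3.96 CPM with Torin1 (−2.94, SE 0.26, adjusted p = 2.52e-09). Cyclins CCND2 (−1.44) and CCNE1 (−1.16) and E2F3 (−0.74) fell. Replication genes went both ways, 12 of 33 up and 14 down (median 0.04, or −0.01 with DESeq2 size factors). DNA ligase LIG1 was at 26, 28.9 and 25.9 without and 145, 154 and 155 CPM with Torin1, a change of 2.49 (SE 0.10, adjusted p = 7.60e-19), and the helicase subunit MCM5 rose by 1.03. ORC6, of the origin complex, was at 126, 129.7 and 138 without and 54.2, 53.6 and 53.3 CPM with Torin1 (−1.29, SE 0.08, adjusted p = 4.91e-14). Of 31 mitotic genes 11 rose and 8 fell (median 0.08). The kinase PLK1 was at 102, 109.9 and 107 without and 234, 242 and 256 CPM with Torin1 (1.20, SE 0.08, adjusted p = 1.13e-13). The motor KIF11 rose (1.29) and the checkpoint target CDC20 fell (−0.66). Within the MYC network 3 of 11 rose and 3 fell (median 0.08), with MGA (0.67) and MYCL (0.96) up and MAX, the partner of MYC, down (−0.39). Of 14 tested BCL2 family genes 7 rose and 6 fell (median 0.36). The death-promoting BMF was at 6.70, 5.08 and 5.72 without and 20.9, 16.9 and 19.4 CPM with Torin1 (1.71, SE 0.17, adjusted p = 3.91e-10) and BID rose by 1.13, while BAX (−0.71), BAK1 (−0.75) and the survival gene MCL1 (−0.55) fell. Histone genes, 10 of 17 tested, rose in 5 cases and fell in 2 (median 0.42), and their near-identical copies make each value uncertain.

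Iron and metal genes rose in 4 of 13 tested cases of 17 and fell in 5 (median −0.02, or 0.09 with total counts). The transferrin receptor TFRC was at 612, 635 and 619 without and 142, 99.5 and 101 CPM with Torin1, a change of −2.45 (SE 0.13, adjusted p = 3.89e-12). MTF1, the zinc-sensing factor, was at 44.3, 47.1 and 61.1 without and 19.9, 12.7 and 16.9 CPM with Torin1 (−1.62, SE 0.15, adjusted p = 1.04e-10). Splicing regulators fell in 16 of 25 cases and rose in 3 (median −0.31). SRSF7 was at 274, 338 and 334 without and 144, 152 and 153 CPM with Torin1 (−1.07, SE 0.08, adjusted p = 2.04e-12) and SRSF4 changed by −1.0. Host genes of small nucleolar RNAs rose in 5 of 16 cases and fell in 6 (median 0.06). SNHG15 was at 93.9, 107 and 100.2 without and 32.2, 35.5 and 43.2 CPM with Torin1 (−1.44, SE 0.10, adjusted p = 1.24e-13). SNHG32 was at 42.7, 33.6 and 27.0 without and 113, 131 and 125 CPM with Torin1 (1.84, SE 0.14, adjusted p = 2.33e-10). Of 10 tested long noncoding RNAs 4 rose and 2 fell (median 0.40). TUG1 was at 81.0, 93.8 and 122 without and 202, 203 and 212 CPM with Torin1 (1.06, SE 0.10, adjusted p = 5.24e-10). NEAT1, the scaffold of paraspeckles, was at 12.9, 12.7 and 7.50 without and 28.9, 31.4 and 31.6 CPM with Torin1 (1.47, SE 0.27, adjusted p = 2.31e-04). Over all tested genes annotated as long noncoding RNAs 538 of 1943 rose (27.7%) and 290 fell (14.9%), with a median of 0.28, against 34.9% and 32.7% of 13616 tested protein-coding genes. Zinc finger genes of the ZNF series rose in 188 of 431 cases (43.6%) and fell in 97 (22.5%), with a median of 0.33.

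**Figure D3:**
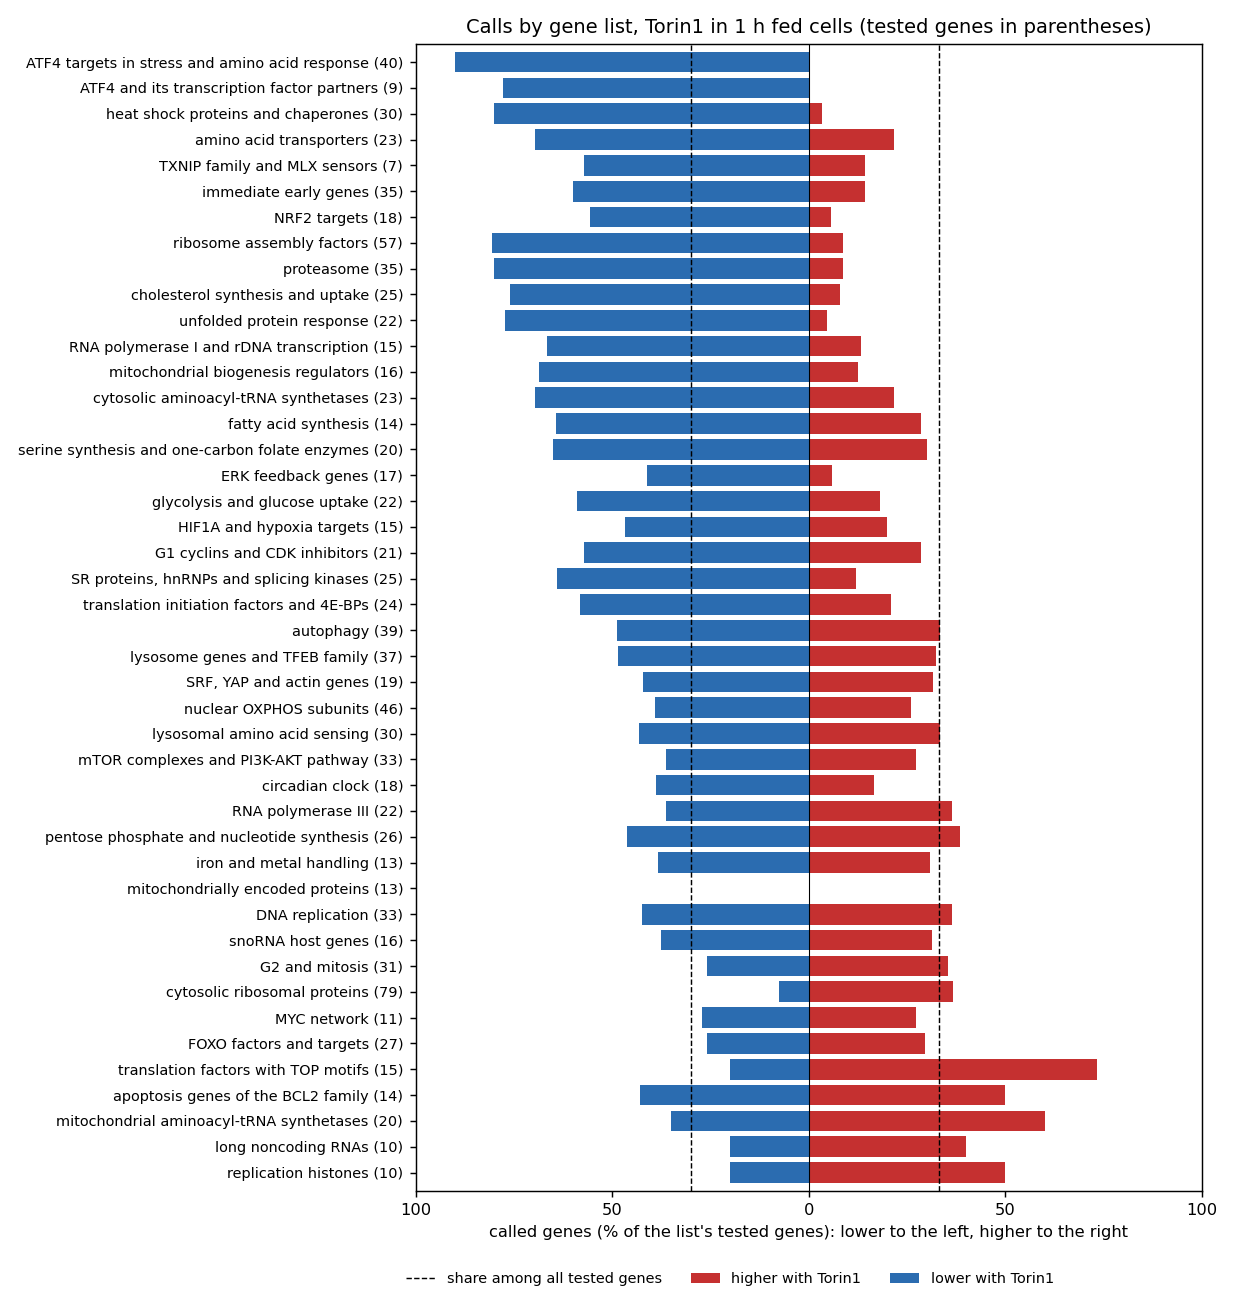
Share of each list's tested genes called lower (blue, to the left) and higher (red, to the right) with Torin1 at 1 h of feeding, lists ordered by median log2 fold change, with the shares among all tested genes as dashed lines. The 2 ATF4 lists, which share genes, have no red bar, and mitochondrially encoded proteins have neither bar. The red bar is longest for translation factors with TOP motifs (11 of 15).

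The 1 h effect was next set beside the effect of Torin1 in starved cells, measured in other libraries. Of the 5451 genes higher at 1 h, 4739 were also called higher in starved cells (86.9% of them, and 85.2% of the 5559 higher there), 0 were called lower and 712 were not called. At an unadjusted p under 0.05, 1 was lower there, and 2 of 5175 genes were lower with the DESeq2 Wald test and 1 of 5493 with limma-voom. Of the 4910 lower at 1 h, 4256 were lower in starved cells (86.7%, and 87.6% of the 4859 lower there) and 5 higher. Over all 16414 tested genes 5559 were higher and 4859 lower with Torin1 in starved cells. The difference between the 2 effects was itself called for 11 genes (0.067%), 2 with a higher effect at 1 h (0.0122%) and 9 with a lower one (0.0548%), and 3 of the 11 have identical counts in every library. In simulated data this test recovered 24% of 1.5-fold and 64% of 2-fold differences, so genes not called may still differ.

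Of the 10 of these genes followed through 20 alternatives, KBTBD7 and SLC30A1 kept the call under all of them. SLC30A1, the zinc exporter, was at 51.7, 63.0 and 65.7 without and 57.1, 36.5 and 35.6 CPM with Torin1 at 1 h (−0.49) and at 46.1, 48.2 and 45.8 CPM without and 12.7, 11.9 and 9.12 CPM with it in starved cells (−2.05), a difference of 1.56 (SE 0.22, adjusted p = 0.00362). KBTBD7, an adaptor of a cullin ubiquitin ligase, was at 5.42, 6.86 and 5.63 without and 13.7, 14 and 15 CPM with Torin1 at 1 h (1.25) and at 2.53, 1.34 and 2.85 CPM without and 19.4, 16.2 and 17.4 CPM with it in starved cells (2.99), a difference of −1.74 (SE 0.27, adjusted p = 0.00362). Torin1 thus lowered SLC30A1 less, with overlapping groups at 1 h, and raised KBTBD7 less after 1 h of feeding. TXNIP, not called at 1 h, was at 44.6, 47.4 and 37.4 CPM without and 99.7, 90.6 and 75.4 CPM with Torin1 in starved cells, a difference of −1.37 (SE 0.22, adjusted p = 0.00806), which was lost without treated library 2 (adjusted p = 0.0523). EGR3 was at 4.76, 3.34 and 2.66 CPM without and 0.835, 0.401 and 0.351 CPM with Torin1 in starved cells, a difference of 2.86 (SE 0.49, adjusted p = 0.0112), with an adjusted p of 0.108 without starved Torin1 library 2, 0.0756 without library 3 and 0.205 with limma-voom. The genes ENSG00000280800, ENSG00000281181 and ENSG00000280614 are those with identical counts in every library, so they are not separate observations. Each was at 3456, 2039 and 2158 without and 1298, 1462 and 925 CPM with Torin1 at 1 h (−1.05) and at 574, 609.9 and 700.1 CPM without and 1578, 1573 and 1504 CPM with it in starved cells (1.30), a difference of −2.36 (SE 0.35, adjusted p = 0.0414). The histone gene H4C14 was at 28.1, 31.4 and 25.8 without and 20.5, 30.8 and 27.3 CPM with Torin1 at 1 h, where its groups overlapped (−0.12, adjusted p = 0.665), and at 11.1, 5.77 and 11.2 CPM without and 31.0, 25.6 and 40.4 CPM with it in starved cells (1.80), a difference of −1.91 (SE 0.33, adjusted p = 0.0478). These calls were lost under 12 and 14 of the 20 alternatives. The other 3 were named after their values were seen. ARRDC4 had a change of −2.54 at 1 h and of −1.77 in starved cells, a difference of −0.77 (SE 0.16, adjusted p = 0.0478), and that call was lost under 13 of the 20. The histone gene H4C8 was at 3.03, 2.80 and 4.29 without and 1.03, 1.68 and 2.16 CPM with Torin1 at 1 h (−1.04) and at 1.55, 1.09 and 0.735 CPM without and 2.71, 3.13 and 3.07 CPM with it in starved cells (1.40), a difference of −2.43 (SE 0.49, adjusted p = 0.0478), lost under 12 of the 20. The third, SIK1, is a kinase that restrains CREB signalling. SIK1 was at 6.89, 5.76 and 4.02 CPM without and 1.03, 1.68 and 2.37 CPM with Torin1 at 1 h (−1.69), and with 0.78 in starved cells (adjusted p = 0.0502) the difference was −2.47 (SE 0.49, adjusted p = 0.0414). It was not followed through the alternatives.

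By 4 h of feeding the effect of Torin1 had changed for many more genes. Of the 5451 genes higher at 1 h 3353 were called higher at 4 h (61.5%, and 74.4% of the 4505 higher there), 376 lower and 1722 not called, with a median of 0.57 at 4 h. Of the 4910 lower at 1 h 3430 were lower at 4 h (69.9%, and 73.1% of the 4693 lower there) and 94 higher, with a median of −0.54. The difference itself was called for 3950 genes (24.1%), 1400 with a higher effect at 4 h (8.53%) and 2550 with a lower one (15.5%). At least a 2-fold difference was found in 427 and 1001 of them.

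**Figure D4:**
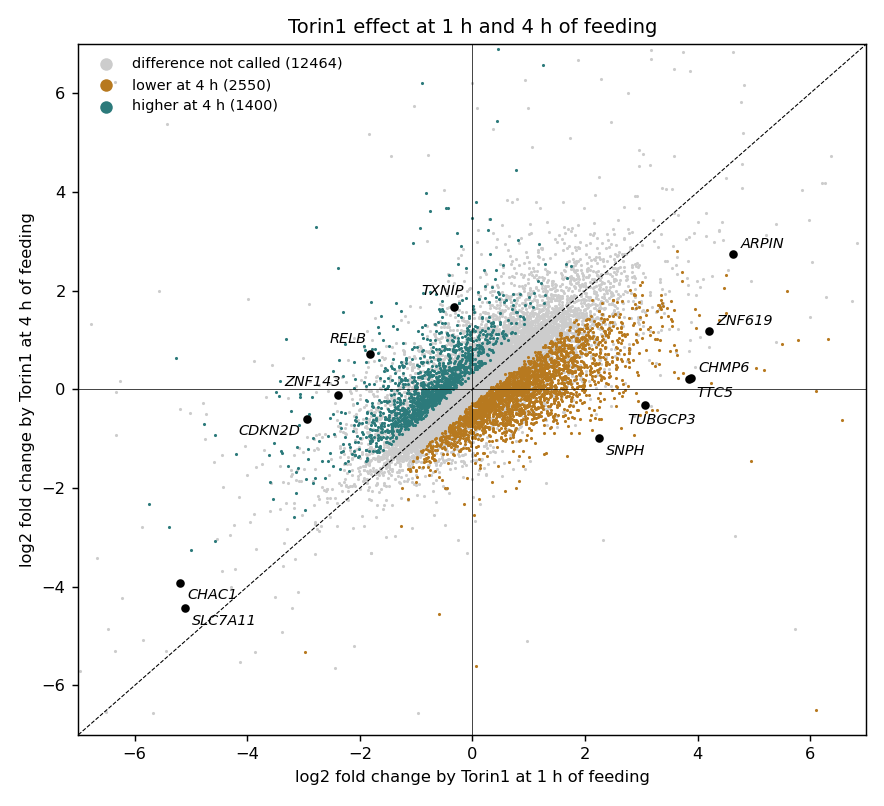
Log2 fold change by Torin1 at 4 h of feeding (vertical axis) against that at 1 h (horizontal axis), 1 point per tested gene, with genes whose 2 effects differed in brown (lower at 4 h) and teal (higher at 4 h), equal effects on the dashed line and 26 genes beyond the axes. TTC5, CHMP6 and TUBGCP3 lie far to the right near 0 on the vertical axis, and ZNF143 far to the left.

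In the genes named here for the largest loss of the rise, the untreated level had come up by 4 h. TTC5 was at 31.9, 31.6 and 34.0 CPM without and 43.4, 33.7 and 36.2 CPM with Torin1 at 4 h (0.22, adjusted p = 0.149), a difference from 1 h of −3.63 (SE 0.22, adjusted p = 1.60e-13). CHMP6 was at 32.1, 27.9 and 28.2 CPM without and 36.7, 32.4 and 35.2 CPM with it, a difference of −3.65 (SE 0.34, adjusted p = 2.62e-08). TUBGCP3, of the gamma-tubulin ring complex, was at 5.69, 4.32 and 5.45 without and 38.9, 44.4 and 46.2 CPM with Torin1 at 1 h and at 45.3, 54.7 and 55.2 CPM and 41.1, 46.3 and 37.8 CPM at 4 h (−0.31), a difference of −3.38 (SE 0.19, adjusted p = 3.69e-14). In all 3 genes the untreated libraries at 4 h lay above those at 1 h. The treated libraries at 1 h and 4 h overlapped in TTC5 and TUBGCP3, while those of CHMP6 were higher at 4 h with no overlap. SNPH, which anchors mitochondria in axons, crossed over, from 0.643, 2.03 and 1.61 without and 5.99, 6.56 and 8.05 CPM with Torin1 at 1 h to 15.7, 18.2 and 16.5 CPM without and 6.55, 8.84 and 9.90 CPM with it at 4 h (−0.99), a difference of −3.24 (SE 0.37, adjusted p = 4.72e-08). ARPIN was at 16.8, 15.1 and 19.1 CPM without and 108, 119 and 117 CPM with Torin1 at 4 h, still a rise of 2.75, and ZNF619 was at 7.97, 8.73 and 9.18 CPM and 23.1, 19.1 and 16.7 CPM (1.19), a difference of −3.02 (SE 0.35, adjusted p = 7.07e-08). WDR31 stayed low without Torin1 at 4 h, at 0.70, 0.48 and 0.562 CPM, and so did EPHX2, at 3.06, 2.02 and 3.47 CPM.

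In ZNF143, CDKN2D, ENSG00000274828 and RELB, named for the largest loss of the fall, the untreated level had come down by 4 h. In RELB the treated level had also gone up. In TXNIP the untreated libraries of 1 h and 4 h overlapped, and the treated level was higher at 4 h. ZNF143, an activator of promoters of housekeeping genes and small RNAs, was at 99.2, 103 and 120.2 without and 23.7, 19.6 and 18.6 CPM with Torin1 at 1 h and at 17.6, 20.6 and 11.9 CPM and 16.9, 16.6 and 12.7 CPM at 4 h (−0.12, adjusted p = 0.55), a difference of 2.27 (SE 0.21, adjusted p = 4.91e-09). CDKN2D was at 11.5, 6.24 and 4.59 CPM without and 4.98, 5.72 and 4.08 CPM with Torin1 at 4 h (−0.60, adjusted p = 0.0679), a difference from 1 h of 2.34 (SE 0.38, adjusted p = 8.12e-05). The unnamed ENSG00000274828 was at 26.9, 22.9 and 27.7 without and 2.91, 2.77 and 3.52 CPM with Torin1 at 1 h and 4.11, 4.22 and 3.28 CPM without it at 4 h, a difference between the effects of 2.90 (SE 0.28, adjusted p = 2.69e-09). RELB, an NF-kappaB subunit, turned from a fall to a rise, from 15.1, 11.7 and 14 without and 4.79, 4.12 and 2.66 CPM with Torin1 at 1 h to 4.90, 6.14 and 4.31 CPM and 9.61, 6.25 and 9.46 CPM at 4 h (0.72), a difference of 2.55 (SE 0.31, adjusted p = 1.48e-07). TXNIP, not called at 1 h, was at 19.7, 22 and 15.8 CPM without and 62.6, 60.5 and 58.7 CPM with Torin1 at 4 h (1.66), a difference from 1 h of 1.99 (SE 0.23, adjusted p = 1.71e-07). Over all 16414 tested genes 4505 were higher and 4693 lower with Torin1 at 4 h. The difference from 1 h was called higher for 8.53% of them and lower for 15.5%. Of the 27 FOXO genes 11 had a higher and 4 a lower effect at 4 h than at 1 h, and 15 were higher and 2 lower with Torin1 at 4 h. Of the 40 ATF4 targets 9 had a higher and 3 a lower effect, the difference was not called for ASNS (0.11, adjusted p = 0.61) and was called for STC2 at 0.51 (SE 0.12, adjusted p = 0.00197). Of 57 ribosome assembly factors 17 had a lower effect at 4 h, WDR75 (a difference of −2.16) and PES1 (a difference of −1.77) among them, and 55 were lower with Torin1 at 4 h.

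**Figure D5:**
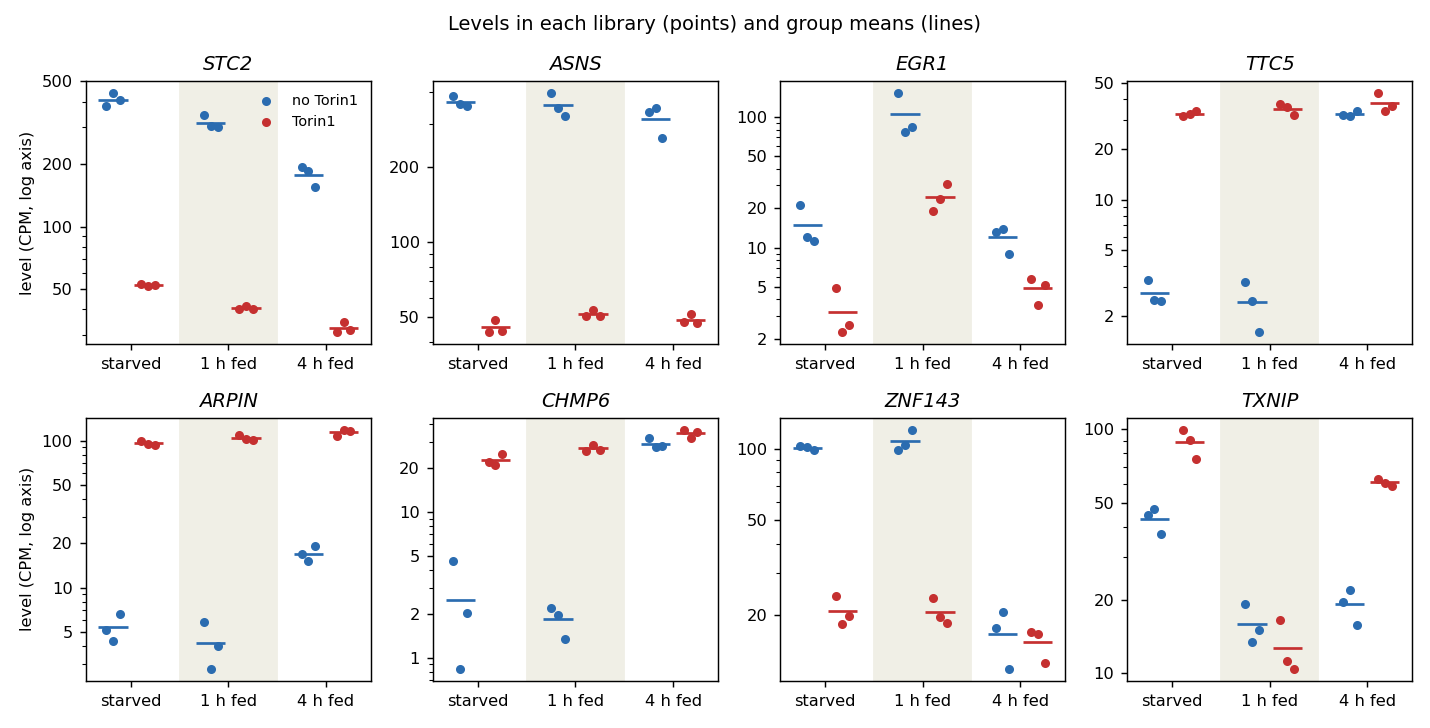
Level in CPM (log axis) of 8 genes in each library (points) with group means (lines), without Torin1 in blue and with it in red, in starved cells, cells fed for 1 h (shaded) and cells fed for 4 h. The treated levels of TTC5 and CHMP6 lie above the untreated ones in starved and 1 h fed cells and the untreated levels come close to them at 4 h, and for ZNF143 the untreated level comes down to the treated one.

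Estimated counts per isoform show which transcripts carried these changes, as levels with no test. TTC5-201, the protein-coding transcript, was at 1.10, 0.677 and 0.803 CPM without and 22.2, 22.3 and 20.9 CPM with Torin1 at 1 h, and TTC5-202, annotated as a target of nonsense-mediated decay, at 1.65, 0.931 and 0.357 CPM and at 12.4, 10.5 and 7.62 CPM. Coding and decay-annotated forms of TTC5 were both at higher levels with Torin1. For ASNS, transcript ASNS-202 held 44.9% of the gene without and 12.4% with Torin1, and ASNS-214 held 34.7% and 53.3%. UBTF-203 was listed at 0 in all untreated libraries at 1 h and was at 38.7, 49.9 and 31.1 CPM with Torin1, while UBTF-205 was at 13.9, 11.1 and 4.55 CPM and listed at 0. An exact 0 for 1 isoform among many of a gene can be an estimate that failed.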

How the data were processed

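RNA was extracted with TRIzol and treated with DNase, per the labels' protocols. The deposited values are expected counts per gene and per isoform, with no scaling. Reads were aligned with STAR in 2 passes, per the labels' protocols, and RSEM and DESeq2 are named without a role or version, per the submitters' processing notes. The protocol names a worm genome, while the gene identifiers are human Ensembl ones, so no coordinate was taken from the files. The authors' strand setting is not given in the sources used here. Of all values 3.32% were not whole, and counts were rounded to whole numbers.

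Genes were filtered with edgeR's filterByExpr (minimum count 10), scaled with TMM and fitted over all 18 libraries with 6 group means and robust quasi-likelihood (edgeR 4.0.16, limma 3.58.1, R 4.3.3), with 12 residual degrees of freedom and a biological coefficient of variation of 10.6%. P-values are edgeR quasi-likelihood, adjusted by Benjamini-Hochberg over all 16414 genes, and a gene was called at an adjusted p under 0.05. CPM used TMM-scaled library sizes. Effects in different feeding states were compared with interaction terms. The fit was tested on simulated data with 50 genes changed at each fold size. For Torin1 at 1 h it recovered 46% of 1.5-fold and 72% of 2-fold changes. For 4 h against 1 h it recovered 18% and 56% of such differences. Few genes were changed in the simulation, while 63.1% and 24.1% were called in the data for these comparisons. The Benjamini-Hochberg threshold depends on that share, so the recovery in the data themselves was not measured. Alternatives were the size factors and the Wald test of DESeq2 1.42.0, scaling by total counts, limma-voom, no filter, only the groups compared, no mitochondrial genes, a replicate block and leaving out each library.

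Symbols came from a table of gene names for 60295 identifiers. The 44 gene lists, 6 marker lists and the comparison itself were chosen with earlier results of these data known. Named genes were 4 markers, the 12 called genes that changed most each way (groups not overlapping, mean reaching 5 CPM), up to 4 called members of each list and direction by p, the sensors and factors of the ATF4, FOXO, TFEB, MYC, TXNIP and mTOR lists, members on which a count turns, and 5 genes per direction of each interaction. That gave 427 genes, of which the text describes a part, and a few are not reported here. Promoters were RefSeq windows on GRCh38.p14.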

Additional observations from a re-analysis of the deposited data

Results flagged for a closer look

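Differences between feeding states are listed where the effect of Torin1 differed between them by an interaction test in edgeR's quasi-likelihood fit. Values in parentheses are log2 differences between the effects.

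Between 1 h of feeding and starvation 11 genes differed, 3 of them with identical counts. The effect was lower at 1 h for ENSG00000280800, ENSG00000281181 and ENSG00000280614 (−2.36 for each), for the histone gene H4C14 (−1.91), for KBTBD7 (−1.74) and for TXNIP (−1.37). It was higher at 1 h for EGR3 (2.86) and SLC30A1 (1.56).

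Between 4 h and 1 h of feeding 3950 genes differed. Of the named genes that Torin1 raised at 1 h, the effect was lower at 4 h for CHMP6 (−3.65), TTC5 (−3.63), TUBGCP3 (−3.38), SNPH (−3.24), ZNF619 (−3.02), TTC26 (−2.82), ASB13 (−2.72), SLC35A1 (−2.69), RASL10B (−2.17), WSCD1 (−2.15), ARPIN (−1.88), KBTBD7 (−1.65) and EPHX2 (−0.82). It was also lower for SLC30A1 (−1.51), which was lower on average with Torin1 in both states, though its groups overlapped at 1 h. Of those it lowered, the effect was higher at 4 h for ENSG00000274828 (2.90), RELB (2.55), CDKN2D (2.34), ZNF143 (2.27), GALR2 (1.74), ENSG00000257390 (1.72), PRRG2 (1.51), SYT11 (1.33), CTH (0.59) and STC2 (0.51), and it was higher for TXNIP as well (1.99). Of 20 alternatives, the call was lost under 9 for EPHX2, 8 for ENSG00000257390, 7 for GALR2, 6 for CTH and 5 for PRRG2. The others listed in this paragraph kept it under all 20.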

How the results depend on the processing

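The count of genes called for Torin1 at 1 h stayed between 9972 and 10514 under the alternatives other than leaving out a library, and between 9630 and 10262 when each library was left out in turn (higher 5033 to 5373, lower 4534 to 4889). The count for 4 h against 1 h was 3456 to 4046 when each library was left out (higher 1117 to 1578, lower 2304 to 2576). Of 381 named genes called for Torin1 at 1 h 352 kept direction and call under every alternative, 29 lost the call under at least 1 and 0 reversed. Of 174 named genes called for 4 h against 1 h 139 kept the call under every alternative. The count for 1 h against starvation moved most. It was 77 (26 higher, 51 lower) with no filter, 39 (16 and 23) with the DESeq2 Wald test, 3 (1 and 2) with limma-voom and 4 (2 lower) with only the groups compared. Leaving out each library gave 3 to 39 genes, 1 to 18 higher and 1 to 21 lower, with 39 without untreated 1 h library 1 and 3 without starved Torin1 library 3. The causes were not tested. With the replicate number as a block the counts were 10514 at 1 h (10313 shared with the fit without it), 23 for 1 h against starvation (8 higher, 15 lower, 7 shared) and 4201 for 4 h against 1 h (3935 shared). Same-numbered 1 h libraries had correlations of deviations of 0.0638, 0.0564 and 0.0088. Each untreated 1 h library correlated best with its own number among the treated ones, a hint from the data and not from the design. Whether same-numbered libraries were handled together is not stated in the labels and was not tested. Depth limits genes near the floor of 3 counts, where a change was not detectable.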

Other observations

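At 1 h of feeding 24.9% of the 193 tested genes of chromosome 21 were higher and 35.2% lower with Torin1, whereas the other nuclear chromosomes with tested genes ranged from 30.4% to 37.7% higher and from 26.7% to 33.2% lower, a difference that was not tested. Of 554 tested pseudogenes 101 were higher and 103 lower, a smaller share than among protein-coding genes in both directions, and pseudogene values share reads with their parent genes.

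Levels of single isoforms of 2 raised genes are given with no test. ARPIN-201 was at 5.69, 2.79 and 4.02 CPM without and 99.5, 98.6 and 98.2 CPM with Torin1, and LIG1-201 at 18.3, 19.5 and 18.6 CPM and at 112, 110 and 111 CPM. LIG1-202, another coding form, had a mean of 2.07 CPM without and 21.9 CPM with Torin1.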
